A study of Mus musculus with 16 samples.

Results

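4TO7 cells, a mouse mammary carcinoma line, were compared after stable overexpression of the microRNAs of Cluster 1 and after infection with the empty pMSCV puro retroviral vector made as their control. These 4 arrays were chosen by sample, 2 of Cluster 1 (repeats A and B) and 2 of its Puro vector control (repeats A and B), of 16 arrays in the whole series. The value of a gene was that of its brightest probe that passed the filter on dim probes, as the log2 ratio of the sample channel over the channel of a universal mouse reference RNA pooled from cell lines. All 4 samples carried Cy5 and lay on slide 4, and all cells were kept in medium with serum and antibiotics. A separate Puro vector control, made for cells overexpressing CDH1 (E-cadherin), carried Cy5 on slide 3 in 2 further arrays and is set beside the own control below. All groups shared the parental line; the labels name the vector of the control cells and not the one that carried Cluster 1. The series design calls the repeats biological replicates, and p-values measured the spread between them. The labels do not say whether repeats came from separate infections, or whether each line was a pool or a clone.

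The miR-200 family is a set of short RNAs that pair with messenger RNAs through their seed and lower the output of those messages. Its best known targets are Zeb1 and Zeb2, repressors that bind E-boxes in the promoters of epithelial genes such as Cdh1, so that family members and ZEB factors hold each other down. In mammary carcinoma cells the family is known for favouring epithelial traits: keratin filaments, adherens and tight junctions, desmosomes and polarity.

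The mature sequences of the family are shown because the seed is what decides which messages each member can pair with. They come from RefSeq (GRCm38.p6), 5′ to 3′, with the seed (bases 2 to 8) in capitals.
mmu-miR-200b-3p: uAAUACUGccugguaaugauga
mmu-miR-429-3p: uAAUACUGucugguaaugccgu
mmu-miR-200c-3p: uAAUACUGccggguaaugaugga
mmu-miR-200a-3p: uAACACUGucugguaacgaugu
mmu-miR-141-3p: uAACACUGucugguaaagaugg
The first 3 shared the seed AAUACUG and the other 2 shared AACACUG. The genes for miR-200b, miR-200a and miR-429 lie on chromosome 4 and those for miR-200c and miR-141 on chromosome 6. The labels do not say which of these groups Cluster 1 stands for, and the mature microRNAs themselves were not analysed here.

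Of 18998 genes tested, 1565 (8.24%) were called between Cluster 1 and Puro vector cells at an adjusted p under 0.05, 922 higher (4.85%) and 643 lower (3.38%). The changes were mostly small: only 60 genes (0.316%) were called and differed by at least 2-fold, 51 higher (0.268%) and 9 lower (0.0474%). Median centring in place of loess gave 782 higher and 345 lower. With the signals processed by the scanner software, 1694 genes were called (8.92%), 936 higher (4.93%) and 758 lower (3.99%). Of these, 336 (1.77%) differed by at least 2-fold, 212 higher (1.12%) and 124 lower (0.653%), so the count of large changes depended on how background and dye were handled. With 1 array left out, in the order Cluster 1 replicate A, Cluster 1 replicate B, Puro vector replicate A and Puro vector replicate B, 677, 978, 836 and 841 genes were called. Counts of list members with 1 array left out follow the same order below. With the Puro vector for CDH1 as control, 1629 of 19002 genes (8.57%) were called, 903 higher (4.75%) and 726 lower (3.82%). Median centring gave 1299 higher and 383 lower there. Both comparisons use the same Cluster 1 arrays, and slide and control line cannot be told apart in the second. Raw sample signals were low, with medians of 50.99 and 52.44 on the Cluster 1 arrays, against 57.4 and 63.46 on the Puro vector arrays, over a local background of 31.5 to 34. The share of probes well above background was 50.79% and 53.47% on the Cluster 1 arrays, against 57.21% and 59.32% on the Puro vector arrays. On the arrays of the Puro vector for CDH1 it was 49.21% and 31.21%. This lower share cannot be told apart from slide and control line in values set against that control.

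The cells were checked against markers of several cell types. Of 15 measured mammary epithelial markers 5 were called higher and 0 lower, and their summed log2 ratio was 0.257 and -1.16 in Cluster 1 cells, against -6.86 and -5.89 in Puro vector cells. The 2 Cluster 1 arrays were above both control arrays. Of 18 mesenchymal markers 0 were called in either direction, with sums of -38.1 and -37.9 in Cluster 1 cells and -38.0 and -39.4 in Puro vector cells. At an unadjusted p under 0.05 in limma, 1 was higher and 1 lower. Over all genes with a value on each of the 4 arrays, the groups did not overlap in 9362 of 18242 (51.3%). Lack of overlap, here and below, is thus common and does not by itself mark a change. Vim, the intermediate filament of mesenchymal cells, was -1.01 and -1.11 in Cluster 1 cells, against -0.64 and -0.73 in their Puro vector cells, so the groups did not overlap. Its difference of -0.38 missed the threshold (adjusted p = 0.133), but passed it in 5 other fits, with an adjusted p of 0.0382 with the replicate block and 0.0117 with the 4 arrays alone. Fn1, fibronectin, had a difference of 0.14 (adjusted p = 0.541). Against the Puro vector for CDH1 it was -0.77 (adjusted p = 0.000471). There 0 mesenchymal markers were higher and 4 lower, with a median of -0.304, beside 0.0892 against the own control. Of 18 leukocyte markers 2 were called against the own control, both higher (11.1%, beside 8.24% of all genes). Sums over the 18 were -11.4 and -12.7 in Cluster 1 cells, against -16.7 and -17.5 in Puro vector cells. The defining leukocyte markers Ptprc, Cd3e, Cd68 and Csf1r lay well above background on both arrays of each group, and none was called (adjusted p = 0.359, 0.542, 0.126 and 0.938). Passing background was not particular to leukocyte markers. On both Cluster 1 arrays 12 of 12 endothelial and 11 of 14 adipocyte and muscle markers passed it too, and 11 and 12 on both Puro vector arrays. Ptprc and Cd68 differed by 0.42 and 0.60, without overlap, and were called with the replicate block (adjusted p = 0.0375 and 0.0397). Of 12 endothelial and 14 adipocyte and muscle markers limma called 0. At an unadjusted p under 0.05, 0 endothelial markers differed, and 1 adipocyte or muscle marker was higher and 1 lower. Against the Puro vector for CDH1, 6 endothelial markers were called lower and 0 higher, and 1 adipocyte or muscle marker lower and 0 higher. The part of leukocyte RNA in the results below was not tested. In these bulk samples, more cells with a message and more message per cell cannot be told apart.

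Keratin and junction genes held the largest called rises. Of 76 tested members of the keratin, adherens junction, tight junction and desmosome lists 23 rose (30.3%) and 0 fell, with a median log2 change of 0.175 beside 0.00515 over all genes tested. At an unadjusted p under 0.05, 33 were higher and 1 lower. The largest called rise was that of Krt7, a keratin of simple epithelia, at 2.52 and 2.50 in Cluster 1 cells, against -1.01 and -1.01 in their Puro vector cells. Both Cluster 1 arrays lay far above both controls, and the log2 change was 3.52 ± 0.101 (SE, limma, adjusted p = 1.24e-08). Its partners in simple epithelial filaments, Krt18 and Krt8, rose too. Krt18 was 0.73 and 0.58 in Cluster 1 cells, against -0.61 and -0.60 in their Puro vector cells, a change of 1.26 ± 0.0821 (adjusted p = 2.31e-06). Krt8 was 0.69 and 0.57 in Cluster 1 cells, against -0.18 in their Puro vector cells (repeat A only, the other spot being marked), a change of 0.81 (adjusted p = 0.00195). The basal keratins Krt5 and Krt14 were not called (log2 differences -0.13 and 0.03). The median over the 13 tested keratins was 0.0486 and turned to -0.0805 with the processed signals.

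**Figure D1:**
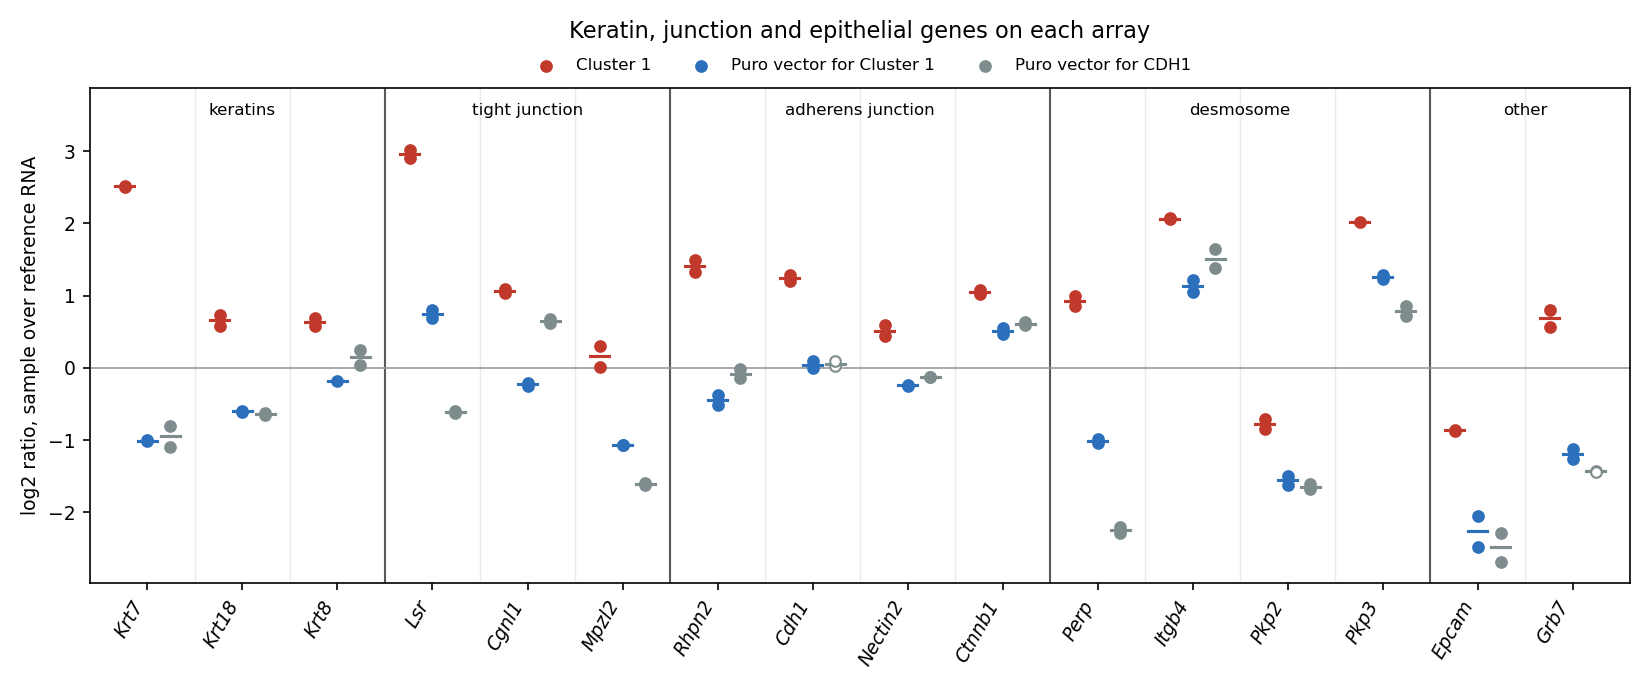
Log2 ratio of sample over reference RNA for 16 keratin, junction and epithelial genes. Points are single arrays and short lines are means of the arrays of Cluster 1 (left), its Puro vector (middle) and the Puro vector for CDH1 (right). Open symbols mark a group where neither array was well above background. Each gene's Cluster 1 arrays lie above its own Puro vector arrays, Krt7 by the widest gap.

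Genes of tight junctions were led by Lsr, which brings tricellulin to tricellular contacts. Lsr was 2.90 and 3.02 in Cluster 1 cells, against 0.69 and 0.80 in their Puro vector cells, without overlap of the groups, a change of 2.22 ± 0.121 (adjusted p = 5.47e-07). Mpzl2, an epithelial adhesion protein of the immunoglobulin family, changed by 1.23 (adjusted p = 3.4e-05). Cgnl1, paracingulin, a cytoplasmic linker of junctions to actin, changed by 1.29, though its probes ran from -0.04 to 1.30. In all, 7 of 25 tight junction and polarity genes rose and 0 fell (4, 5, 4 and 4 rose with 1 array left out). Of 19 adherens junction genes 6 rose (4, 5, 6 and 5 with 1 array left out). Cdh1, E-cadherin, the cadherin of epithelial adherens junctions and a ZEB target, was 1.21 and 1.29 in Cluster 1 cells, against -0.01 and 0.09 in their Puro vector cells. Both Cluster 1 arrays exceeded both controls, with a change of 1.21 ± 0.126 (adjusted p = 9.57e-05), a fold of 2.31. Its cytoplasmic partner Ctnnb1, beta-catenin, changed by 0.54 (adjusted p = 0.000952). Rhpn2, a rhophilin that binds RhoA, changed by 1.85 (adjusted p = 2.31e-06). Nectin2, an adhesion molecule of the same junctions, changed by 0.75, although its probes ran from -0.04 to 0.75 and the mean over probes was not called.

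Desmosome and hemidesmosome genes rose in 7 of 19, with 0 lower (6, 5, 8 and 6 rose with 1 array left out). Perp, a desmosomal protein also known as a p53 target, was 0.85 and 1.00 in Cluster 1 cells, against -0.99 and -1.04 in their Puro vector cells, with no overlap and a change of 1.94 ± 0.0694 (adjusted p = 1.47e-08). The plakophilins that bind desmosomal cadherins to the cytoskeleton, Pkp2 and Pkp3, changed by 0.78 and 0.77 (Pkp3 has 1 Cluster 1 array). Itgb4, the integrin of hemidesmosomes, was 2.07 and 2.06 in Cluster 1 cells, against 1.05 and 1.21 in their Puro vector cells, a change of 0.93 (adjusted p = 0.000132). Col7a1, the collagen of anchoring fibrils, changed by 1.05 (adjusted p = 3.12e-05). Outside these lists Epcam, an epithelial adhesion glycoprotein, was -0.88 and -0.85 in Cluster 1 cells, against -2.05 and -2.48 in their Puro vector cells. Its change was 1.40 ± 0.167 (adjusted p = 0.000265), and its groups did not overlap. Grb7, an adaptor of receptor tyrosine kinases, changed by 1.88 (adjusted p = 3.07e-05). With the processed signals the same changes were 2.39 for Cdh1, 3.36 for Grb7, 2.26 for Epcam, 3.23 for Rhpn2 and 1.83 for Mpzl2, each larger than the values above. Serpinb5, maspin, a serpin of mammary epithelium, was 0.60 and 0.66 in Cluster 1 cells, against -0.09 and -0.18 in their Puro vector cells, where it was not well above background on either array. Its log2 ratio differed by 0.77 (adjusted p = 0.031) and by 5.54 with the processed signals, so the size of its change depended on how background and dye were handled. The call was lost with any 1 of the 4 arrays left out (adjusted p = 0.137, 0.143, 0.111 and 0.164 in the order above) and with no filter on dim probes.

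With the other control, 24 of the 76 keratin and junction genes were higher and 2 lower, with a median of 0.199. The changes there were 3.46 for Krt7, 1.30 for Krt18, 3.57 for Lsr and 3.17 for Perp (adjusted p = 3.14e-09, 1.3e-06, 3.14e-09 and 7.33e-11). Col7a1 was 0.31 against that control, which missed the threshold (adjusted p = 0.0649). Krt7 and Perp were well above background on only 1 of the 2 arrays of that control, which limits their sizes there. Cdh1 and Grb7 were not well above background on either array of that control, so no size is given.

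Promoters of epithelial genes often carry the E-box CAGGTG that ZEB factors recognise, and the windows of 3 genes that rose, chosen because they hold it, are shown. The promoters of Rhpn2 and Cgnl1, which also rose, had 0 matches. They come from RefSeq (GRCm38.p6), 5′ to 3′ on the gene's strand, with the 250 bases before the start and matches to CAGGTG or its complement in capitals.
Krt7, chr15:101412153-101412402 (plus strand): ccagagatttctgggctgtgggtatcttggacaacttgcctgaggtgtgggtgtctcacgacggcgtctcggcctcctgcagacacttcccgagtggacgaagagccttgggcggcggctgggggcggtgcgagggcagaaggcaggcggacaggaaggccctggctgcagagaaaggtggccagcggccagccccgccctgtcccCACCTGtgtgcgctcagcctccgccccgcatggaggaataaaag
Lsr, chr7:30973470-30973719 (minus strand): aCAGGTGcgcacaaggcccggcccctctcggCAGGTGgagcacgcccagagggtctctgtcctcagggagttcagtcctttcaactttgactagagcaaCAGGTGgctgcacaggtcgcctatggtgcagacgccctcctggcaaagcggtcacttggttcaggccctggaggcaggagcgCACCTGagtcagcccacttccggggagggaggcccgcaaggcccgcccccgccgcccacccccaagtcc
Epcam, chr17:87635729-87635978 (plus strand): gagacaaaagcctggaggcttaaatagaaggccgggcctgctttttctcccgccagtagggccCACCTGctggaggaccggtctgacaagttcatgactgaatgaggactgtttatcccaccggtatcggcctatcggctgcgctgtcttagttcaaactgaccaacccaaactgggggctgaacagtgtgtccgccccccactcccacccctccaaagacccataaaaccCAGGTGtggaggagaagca
The motif first base lay at -44 of the start in Krt7, at -249, -219, -151 and -69 in Lsr, and at -187 and -19 in Epcam. Over windows of 250 bases before to 50 after the start, both strands, 20.2% of 32851 promoters held it. Of tested genes with a promoter 21.9% (2684 of 12272) held it, against 26.1% (180 of 689) of genes called higher and 17.5% (84 of 479) of genes called lower. Among keratin and junction genes 57.1% (8 of 14) of those called higher and 53.6% (15 of 28) of the others tested held it. A match is a description of letters, not of bound factor.

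Of the ZEB genes, Zeb1 was not called and Zeb2 fell. Zeb1 was -1.65 and -1.13 in Cluster 1 cells, against -1.38 and -1.93 in their Puro vector cells, so the groups overlapped, with a difference of 0.26 ± 0.218 (adjusted p = 0.616). Zeb2 was -0.0042 and 0.06 in Cluster 1 cells, against 0.34 and 0.50 in their Puro vector cells, below both controls, and fell by 0.39 (adjusted p = 0.00588), with a change of -0.87 from the processed signals. Its call was lost when Cluster 1 replicate A was left out (adjusted p = 0.0606) and when Puro vector replicate B was left out (adjusted p = 0.0657), and its probes ran from -0.98 to 0.16. Against the Puro vector for CDH1 it was -0.75 (adjusted p = 4.86e-05). Of 59 reported miR-200 targets 6 fell and 2 rose, with a median log2 change of -0.045 (3, 6, 4 and 3 fell with 1 array left out). On the other control 3 were higher and 10 lower, with a median of -0.0122. The share of these targets called against the own control was 13.6%, beside 8.24% of all genes. Among those that fell, Ppm1f, a phosphatase of protein kinases, changed by -0.63 and Flt1, a VEGF receptor, by -0.71 (adjusted p = 0.000217 and 4.94e-05), and single probes of each disagreed (-0.63 to 0.04 and -0.71 to 0.14). Rnd3, an atypical GTPase on the same list, rose by 0.68 (adjusted p = 0.002). Sec23a, a coat protein of secretory vesicles on the list, had a difference of -0.03 (adjusted p = 0.962). It was well above background on only 1 of the 2 Cluster 1 arrays, and its difference was 0.56 with the processed signals (adjusted p = 0.293). Dicer1 and Ago2 of the microRNA machinery had differences of -0.13 and -0.24 (adjusted p = 0.535 and 0.2). Of 23 EMT transcription factors 2 rose and 1 fell (13.0% called, beside the same 8.24%). Snai1, a repressor of Cdh1, was not called (difference -0.08, adjusted p = 0.757), and Twist1 was not well above background on any array of either group.

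A second group with shared rises was made of interferon-stimulated and antigen presentation genes. Of 35 interferon-stimulated genes 16 rose and 0 fell (median 0.386), and of 19 antigen presentation genes 8 rose and 0 fell (median 0.419). With 1 array left out the rises numbered 11, 13, 13 and 11 and 5, 8, 5 and 6. At an unadjusted p under 0.05, 21 and 11 were higher and 0 and 1 lower. Rtp4, an interferon-induced transmembrane transporter protein, was -0.51 and -0.79 in Cluster 1 cells, against -1.91 and -2.05 in their Puro vector cells, a change of 1.32 ± 0.111 (adjusted p = 1.66e-05). Both Cluster 1 arrays were higher than both controls. Parp14, an ADP-ribosyltransferase, changed by 1.30, Ifi27 by 1.08 and Bst2, tetherin, a surface protein that holds viruses at the membrane, by 0.84 (adjusted p = 1.51e-05, 8.07e-06 and 9.78e-05). Irf9, a DNA-binding factor of the interferon response, was 0.32 and 0.31 in Cluster 1 cells, against -0.44 and -0.43 in their Puro vector cells, a change of 0.75 (adjusted p = 0.00123). Psmb9, a subunit of the immunoproteasome, was 0.05 and -0.23 in Cluster 1 cells, against -1.16 and -1.16 in their Puro vector cells, a change of 1.07 (adjusted p = 0.000117), and its fellow subunit Psmb8, with 1 Puro vector array, changed by 1.05 (adjusted p = 1.44e-05). The class I molecules H2-T23 and H2-K1 changed by 0.68 and 0.59, and Tapbp, tapasin, which loads peptides onto them, by 0.57 (adjusted p = 0.00028, 0.000852 and 0.00368).

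Set against the Puro vector for CDH1, the same lists gave 4 higher and 1 lower (median 0.052) and 0 higher and 2 lower (median 0.0715). There Rtp4 was 0.20, Psmb9 0.20 and Psmb8 -0.30 (adjusted p = 0.373, 0.4 and 0.0145). The 2 controls gave different counts for these lists, and slide and control line cannot be told apart. The summed leukocyte marker ratio given above was also higher in Cluster 1 cells than in their own Puro vector cells, and its part in these counts was not tested.

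Promoters of 2 called genes are shown, chosen because they hold the interferon response pattern, GAAA followed after any 2 bases by GAAA, which STAT and IRF factors read. Matches are in capitals. They follow the same RefSeq table and conventions.
Bst2, chr8:71537473-71537722 (minus strand): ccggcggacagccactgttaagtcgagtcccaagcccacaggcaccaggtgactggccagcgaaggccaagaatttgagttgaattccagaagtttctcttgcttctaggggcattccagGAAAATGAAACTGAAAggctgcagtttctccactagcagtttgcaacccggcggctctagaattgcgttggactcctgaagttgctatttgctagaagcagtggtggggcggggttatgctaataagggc
H2-T23, chr17:36032702-36032951 (minus strand): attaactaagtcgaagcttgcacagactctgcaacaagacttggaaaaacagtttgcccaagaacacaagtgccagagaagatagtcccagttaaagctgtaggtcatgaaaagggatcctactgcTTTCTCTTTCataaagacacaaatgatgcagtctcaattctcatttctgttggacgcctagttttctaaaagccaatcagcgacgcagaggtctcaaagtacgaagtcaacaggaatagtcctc
The pattern, on either strand, began at -130 and -124 of the start in Bst2, the 2 matches overlapping, and at -124 in H2-T23. It was held by 3.44% of 32851 promoters and by 3.71% (455 of 12272) of tested genes. Over all genes called higher 4.21% (29 of 689) held it, and over those called lower 3.13% (15 of 479). Of the interferon and antigen presentation genes called higher with a promoter 40.0% (8 of 20) held it. The share among members of these lists that were not called was not computed, so 40.0% cannot be tied to the rises. The 2 patterns were counted independently of each other.

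Complement and acute phase genes were a further group with shared rises: of 35 tested 12 rose and 0 fell, with a median of 0.27. With 1 array left out 5, 9, 5 and 10 rose, and at an unadjusted p under 0.05, 16 were higher and 0 lower. C3, the central complement component, was 0.68 and 0.54 in Cluster 1 cells, against -1.15 and -1.01 in their Puro vector cells, a change of 1.69 ± 0.0779 (adjusted p = 9.07e-08), and its other probe gave a smaller difference (probes from 0.14 to 1.69). C1s1, a protease of the classical pathway, changed by 1.02, Lbp, which binds bacterial lipopolysaccharide, by 0.92 and Ptx3, a pentraxin, by 0.58 (adjusted p = 0.00141, 0.000339 and 0.000382). Cd14, the co-receptor for that lipopolysaccharide and a leukocyte marker, was 0.46 and 0.42 in Cluster 1 cells, against -0.98 and -0.91 in their Puro vector cells, a change of 1.38 (adjusted p = 1.19e-06). Against the Puro vector for CDH1 the list had 4 higher and 1 lower (median 0.0182), and C3 was 0.12 there. As for the interferon lists, the part of the higher leukocyte marker sum was not tested.

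Sterol and lipid genes rose in most members of the cholesterol synthesis list, where 17 of 25 rose and 0 fell (median 0.366). With 1 array left out 11, 10, 12 and 11 rose, and at an unadjusted p under 0.05, 19 were higher and 0 lower. Tm7sf2, a sterol reductase, was 1.18 and 1.24 in Cluster 1 cells, against 0.20 and 0.30 in their Puro vector cells, a change of 0.96 (adjusted p = 5.57e-05). Idi1, an isomerase of isoprenoid precursors, changed by 0.58 and Insig1, a regulator of sterol synthesis, by 0.67 (adjusted p = 0.00294 and 0.00154). Srebf2, the activator of these genes, changed by 0.43 (adjusted p = 0.00224), and was 0.004 against the Puro vector for CDH1 (adjusted p = 0.989). Of 17 fatty acid genes 6 rose (4, 3, 3 and 4 with 1 array left out), led by Scd1, the desaturase of saturated acyl chains, at 0.72 and 0.90 in Cluster 1 cells, against -0.12 and -0.23 in their Puro vector cells, a change of 0.99 (adjusted p = 6.77e-05). Fasn was not called (-0.07). In the comparison with the Puro vector for CDH1, the cholesterol list had 9 higher and 0 lower (median 0.182), and the fatty acid list had 1 higher and 2 lower, with Scd1 at -0.08.

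DNA replication and S phase genes went the other way, with 11 of 32 lower and 0 higher (median -0.234). With 1 array left out 6, 6, 8 and 7 fell, and at an unadjusted p under 0.05, 21 were lower and 0 higher. Ccne1 and Ccne2, the cyclins of entry into S phase, changed by -0.47 and -0.56 (adjusted p = 0.00358 and 0.0026), though neither was called as a mean over probes. Mcm5, a subunit of the replicative helicase, was 0.01 and 0.15 in Cluster 1 cells, against 0.54 and 0.60 in their Puro vector cells, a change of -0.49 (adjusted p = 0.00266), and Slbp, which binds histone messages, changed by -0.57 (adjusted p = 0.000265). Of 30 mitosis genes 1 fell (3.33% called, beside 8.24% of all genes), Nuf2 of the kinetochore, by 0.63 (adjusted p = 0.000332). Mki67 was not called (-0.20). On the other control, the S phase list had 1 higher and 1 lower (median 0.000292), and Mcm5 was 0.01.

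Stress and metabolism lists held smaller groups of rises. Of 32 unfolded protein and amino acid stress genes 9 rose (5, 6, 9 and 5 with 1 array left out), among them Trib3, a pseudokinase, by 0.69 and Sdf2l1 of the endoplasmic reticulum by 0.60 (adjusted p = 3.12e-05 and 0.000812). Against the Puro vector for CDH1 this list had 4 higher and 7 lower (median -0.000604), with Trib3 at -0.07 and Sdf2l1 at 0.01. Of 24 NRF2 genes 7 rose and 1 fell, and Nqo1, the quinone reductase, changed by 0.49 (adjusted p = 0.00446). Of 28 glycolysis and hypoxia genes 4 rose and 2 fell, and Aldoc, an aldolase, was 0.12 and -0.14 in Cluster 1 cells, against -1.32 and -1.27 in their Puro vector cells, a change of 1.29 (adjusted p = 0.000123). The other control gave 1 higher and 7 lower for this list (median -0.136), with Aldoc at 0.20 (adjusted p = 0.503), and the list's median of 0.0399 against the own control turned sign in 3 other fits. Of 23 p53 targets 5 rose, Fas and Ccng1 by 0.54 and 0.48 (adjusted p = 0.000208 and 0.000968). Of 24 mitochondrial respiration genes 4 fell, among them Ndufs1 of complex I by 0.38 (adjusted p = 0.00438). In the lysosome list 3 of 28 rose and 2 fell (17.9% called, beside 8.24% of all genes). In the COPII list 1 of 18 rose (5.56% called, no more than the 8.24% of all genes). Of 8 prolactin family genes 3 fell: Prl2c3 by 1.48 and Prl2c5 by 1.56 were the largest (adjusted p = 5.02e-06 and 7.6e-07), and since Prl2c genes are near-identical copies their probes may share signal. On the other control the NRF2 list had 7 higher and 3 lower, the p53 list 5 higher and 1 lower, the respiration list 3 higher and 3 lower and the prolactin list 0 higher and 2 lower.

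**Figure D2:**
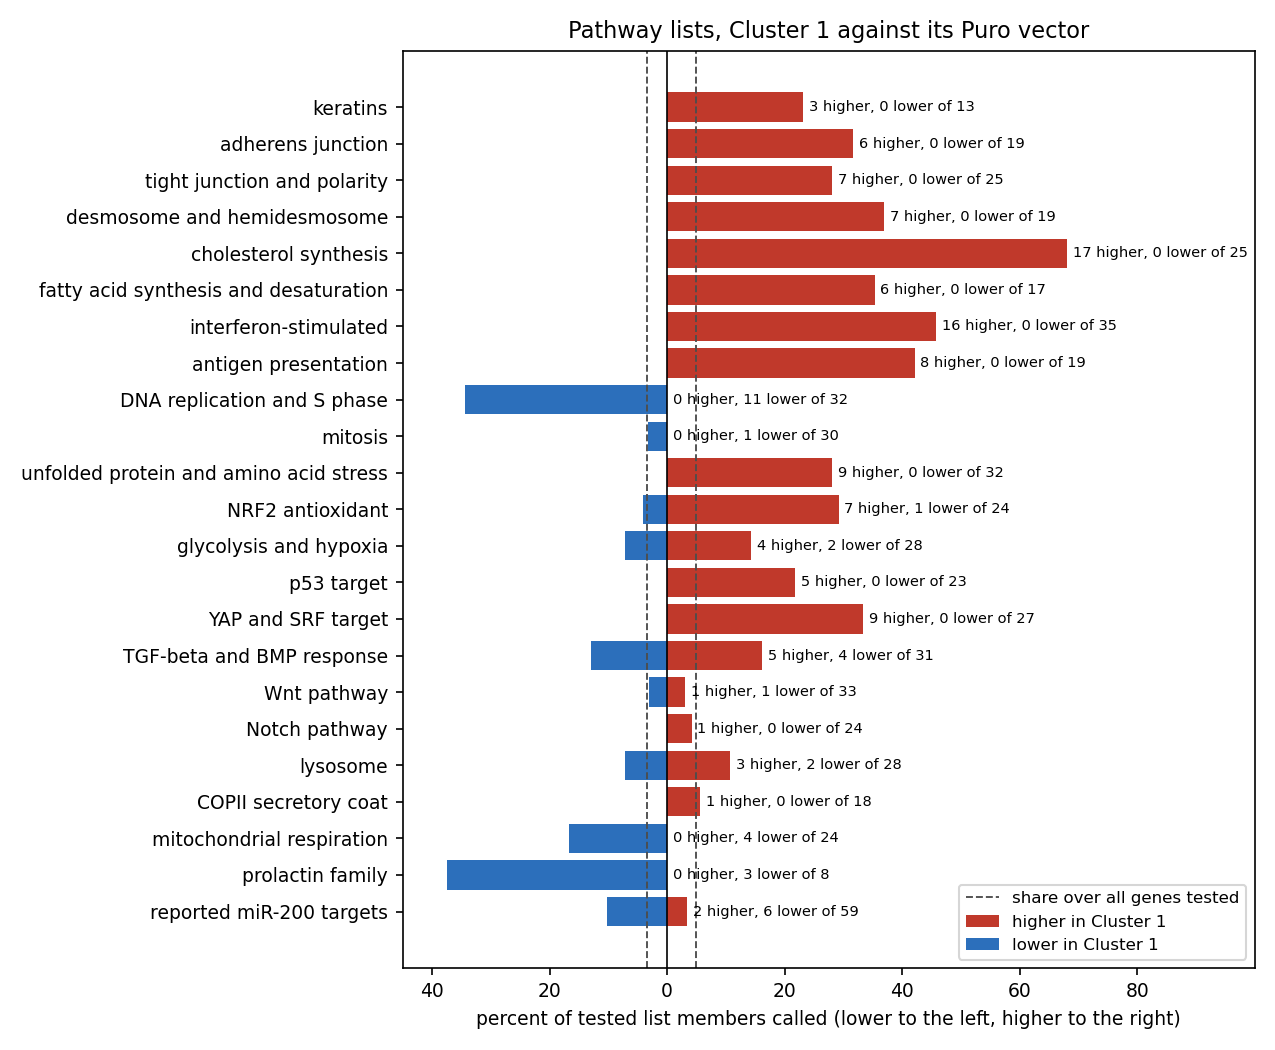
Percent of tested members of each pathway list called lower (left, blue) or higher (right, red) in Cluster 1 than in its own Puro vector cells. Counts stand beside the bars, and dashed lines are the shares over all genes tested (4.85% higher, 3.38% lower). The cholesterol list has 17 of 25 members higher and the S phase list 11 of 32 lower.

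Of the signalling pathways, YAP and SRF targets rose in 9 of 27 with 0 lower (median 0.156), and 6, 7, 6 and 6 rose with 1 array left out. Ccn2, a matricellular protein, was -0.46 and -0.28 in Cluster 1 cells, against -1.18 and -1.39 in their Puro vector cells, a change of 0.92 (adjusted p = 0.00334). Tpm2, a tropomyosin, changed by 0.96, F3, tissue factor, by 0.78 and Ankrd1 by 0.46 (adjusted p = 2.95e-05, 9.2e-05 and 0.000948). The same list had 7 higher and 0 lower against the Puro vector for CDH1, with Ccn2 at 1.33. TGF-beta and BMP response genes split, 5 higher and 4 lower of 31. Tgfb3, a ligand, changed by 0.83 and Ltbp2, a latent TGF-beta binding protein, by 0.90 (adjusted p = 3.07e-05 and 1.57e-05), although the probes of Ltbp2 ran from -0.14 to 0.90 and its value against the Puro vector for CDH1 was -0.40 (adjusted p = 0.00541). The BMP target Id3, an inhibitor of helix-loop-helix factors, was -0.28 and -0.41 in Cluster 1 cells, against 0.37 and 0.38 in their Puro vector cells, below both controls, a change of -0.72 (adjusted p = 0.000108). Its relative Id1 changed by -0.61 (adjusted p = 0.00553), a call lost when Cluster 1 replicate A was left out (adjusted p = 0.0718). Wnt pathway genes had 1 rise and 1 fall of 33 (6.06% called, no more than the 8.24% of all genes). They were Wnt10a, a ligand, by 0.71 and Apcdd1, a membrane-bound Wnt inhibitor, by -1.01 (adjusted p = 0.000937 and 0.000156). Against the Puro vector for CDH1, Wnt10a was 0.01 and Apcdd1 -0.83 (adjusted p = 0.9745 and 0.000606). The probes of Apcdd1 ran from -1.01 to -0.04. Of 24 Notch genes 1 rose (4.17% called, beside the same 8.24%), Dtx4, a Deltex protein, by 0.57 (adjusted p = 0.000117).

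Of the transcription factors, 28 were higher and 12 lower of 297 tested (13.5% called, beside 8.24% of all genes), and 21 higher and 26 lower against the Puro vector for CDH1. STAT, IRF, NF-kB and C/EBP factors had 9 higher and 1 lower of 31 (3, 5, 4 and 7 higher with 1 array left out). Irf1, an interferon regulatory factor, was 0.29 and 0.27 in Cluster 1 cells, against -0.40 and -0.38 in their Puro vector cells, a change of 0.67 ± 0.0635 (adjusted p = 4.41e-05), and Stat3 changed by 0.39 (adjusted p = 0.00387). The groups did not overlap for Irf1. Against the Puro vector for CDH1 the list had 2 higher and 6 lower, and these factors were at -0.11 and 0.06, neither called (adjusted p = 0.394 and 0.772). Of immediate early factors 6 rose and 3 fell of 34. Egr2, a zinc finger factor, changed by 0.42, Jun, an AP-1 subunit, by -0.37 and Ier5 by -0.52 (adjusted p = 0.00351, 0.00336 and 0.000931). Among 22 ETS, RUNX and GATA factors only Ets2 was called, at 0.61 (adjusted p = 0.0011), or 4.55% beside 8.24% of all genes. Of 64 SOX, FOX and homeobox factors 4 rose and 0 fell (6.25% called, no more than the 8.24% of all genes), among them 2 FOX factors. Foxo1, held in the cytoplasm by insulin signalling, changed by 0.59 and Foxp1 by 0.58 (adjusted p = 0.0017 and 0.000837), against -0.15 and 0.37 on the other control. Of 58 nuclear receptors and lipid or oxygen sensing factors 5 rose (8.62% called, near the 8.24% of all genes). Vdr, the vitamin D receptor, changed by 0.58 and Nfe2l1 by 0.35 (adjusted p = 0.000889 and 0.00513). Of 25 epithelial and mammary factors limma called 0, with 5 higher and 1 lower at an unadjusted p under 0.05. Grhl2, a grainyhead factor of epithelia, was -0.19 and -0.17 in Cluster 1 cells and -0.51 and -0.45 in Puro vector cells, without overlap, but its difference of 0.30 missed the threshold (adjusted p = 0.0526). It was called with offset 10 (adjusted p = 0.0306). Klf5 and Klf4 were at 0.03 and -0.14 (adjusted p = 0.899 and 0.327).

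**Figure D3:**
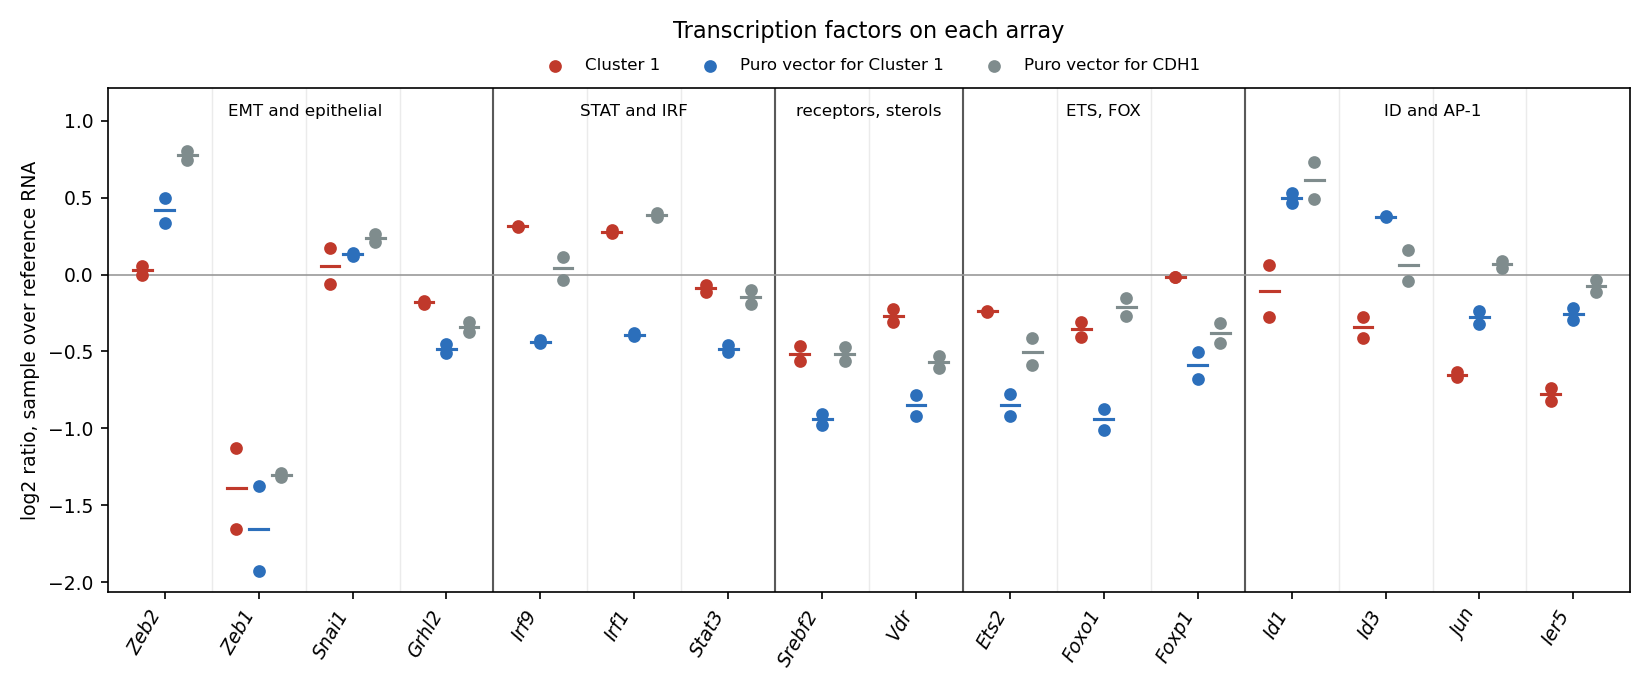
Log2 ratio of sample over reference RNA for 16 transcription factors, one point per array, for Cluster 1 (left), its Puro vector (middle) and the Puro vector for CDH1 (right); short lines are means of 2 arrays. Open symbols mark a group where neither array was well above background. Irf9 and Irf1 lie higher in Cluster 1 than in its own Puro vector cells, and Id1 and Id3 lower.

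Surface genes had 31 higher and 15 lower of 233 tested (19.7% called, beside 8.24% of all genes), and 27 higher and 31 lower against the Puro vector for CDH1. Epithelial surface glycoproteins rose in 7 of 34 and fell in 1. Msln, mesothelin, a glycoprotein of mesothelium and many carcinomas, was -1.45 and -1.51 in Cluster 1 cells, against -3.27 and -3.25 in their Puro vector cells, a change of 1.78 ± 0.144 (adjusted p = 1.31e-05). Folr1, a folate receptor, changed by 0.74 (its probes ran from -0.21 to 0.74) and Sdc1, a syndecan, by 0.64 (adjusted p = 0.000215 and 0.000365). Cd34, a sialomucin, was -1.15 and -1.13 in Cluster 1 cells, against -2.62 and -2.74 in their Puro vector cells, a change of 1.54 (adjusted p = 0.00201). Of 21 integrins 4 rose and 1 fell. Itgb7, a leukocyte integrin beta chain, was 0.57 and 0.51 in Cluster 1 cells, against 1.21 and 1.20 in their Puro vector cells, a change of -0.66 (adjusted p = 8.22e-05). Of 31 receptor tyrosine kinases 1 rose and 1 fell (6.45% called, no more than the 8.24% of all genes). Erbb2 was -0.22 and -0.21 in Cluster 1 cells and -0.48 and -0.41 in Puro vector cells, without overlap, but missed the threshold (0.23, adjusted p = 0.0503). Egfr and Met were not called (adjusted p = 0.309 and 0.409). Ephrins and Eph receptors had 3 higher and 3 lower of 16, the receptor Epha1 by 0.79 and the ligand Efnb1 by -0.86 (adjusted p = 0.000603 and 2.76e-05). Against the Puro vector for CDH1, Epha1 was 0.47 and Efnb1 0.01 (adjusted p = 0.0149 and 0.982). Sema6d, a transmembrane semaphorin, was -0.12 and -0.15 in Cluster 1 cells, against 0.80 and 0.84 in their Puro vector cells, a change of -0.95 (adjusted p = 2.81e-05). Of 34 immunoglobulin and cadherin adhesion molecules 3 rose and 2 fell (14.7% called, beside 8.24% of all genes). Fat1, a giant cadherin, changed by 0.81 (adjusted p = 0.000332), with probes from -0.01 to 0.81. Tetraspanins had 6 higher and 3 lower of 29 (2 and 9 against the Puro vector for CDH1), Tspan1 by 0.82 and Tspan2 by -0.72 (adjusted p = 8.22e-05 and 0.00181). Cytokine and TNF receptors had 9 higher and 2 lower of 48. Tnfrsf11b, the secreted decoy osteoprotegerin, was 1.19 and 0.97 in Cluster 1 cells, against 0.12 and 0.19 in their Puro vector cells, a change of 0.92, and the receptor chains Il10rb and Ifnar2 changed by 0.76 and 0.60 (adjusted p = 8.3e-05, 9.82e-05 and 0.00252). Against the Puro vector for CDH1, Tnfrsf11b, Il10rb and Ifnar2 were 1.19, 0.06 and 0.26 (adjusted p = 9.33e-06, 0.792 and 0.155). Cd44 and Cd24a, often used to sort mammary cells, were not called against the own control (differences 0.03 and -0.20).

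Secreted genes had 45 higher and 9 lower of 314 tested (17.2% called, beside 8.24% of all genes), and 23 higher and 27 lower against the Puro vector for CDH1. The largest fall of all named genes was Mmp3, stromelysin, a matrix metalloprotease, at 0.64 and 0.88 in Cluster 1 cells, against 2.53 and 2.47 in their Puro vector cells. Both Cluster 1 arrays lay below both controls, a change of -1.74 ± 0.0996 (adjusted p = 7.6e-07), and its value against the Puro vector for CDH1 was -1.10 (adjusted p = 2.37e-05). Of the 36 metalloproteases and inhibitors tested 3 rose and 1 fell (11.1% called, beside 8.24% of all genes). Of 68 collagens and matrix glycoproteins 9 rose and 3 fell (4, 7, 6 and 5 rose with 1 array left out). Mgp, the matrix Gla protein that limits calcification, was 1.35 and 1.13 in Cluster 1 cells, against -0.39 and -0.18 in their Puro vector cells, a change of 1.53 ± 0.107 (adjusted p = 4.23e-06), and 0.20 against the Puro vector for CDH1 (adjusted p = 0.352). Col18a1, whose fragment is endostatin, changed by 0.69, and Col8a1 by 0.85 with probes from -0.004 to 0.85 (adjusted p = 9.94e-05 and 7.34e-06). Of 34 serine proteases, cathepsins and serpins 3 rose (8.82% called, near the 8.24% of all genes). Among them was Htra1 by 0.79 (adjusted p = 5.44e-05), which was -0.35 against the Puro vector for CDH1. Chemokines rose in 4 of 25 and fell in 0. Cxcl16, made as a membrane and a soluble form, was 2.33 and 2.38 in Cluster 1 cells, against 1.25 and 1.45 in their Puro vector cells, a change of 1.00 (adjusted p = 0.000274). Of 36 cytokines 4 rose and 3 fell. Il11, an IL-6 family cytokine, was 0.55 and 0.48 in Cluster 1 cells, against 1.77 and 1.78 in their Puro vector cells, below both controls, a change of -1.26 ± 0.0772 (adjusted p = 1.19e-06). Against the Puro vector for CDH1, Il11 was -0.28 (adjusted p = 0.04245). Il6 was not well above background on any Cluster 1 array or any array of its own Puro vector. Of 81 growth factors and morphogens 10 rose and 2 fell (4, 5, 6 and 5 rose with 1 array left out), Pdgfa by 0.80 and Vegfc by 0.63 (adjusted p = 1.69e-05 and 0.000389), with -0.20 and 0.09 against the Puro vector for CDH1.

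**Figure D4:**
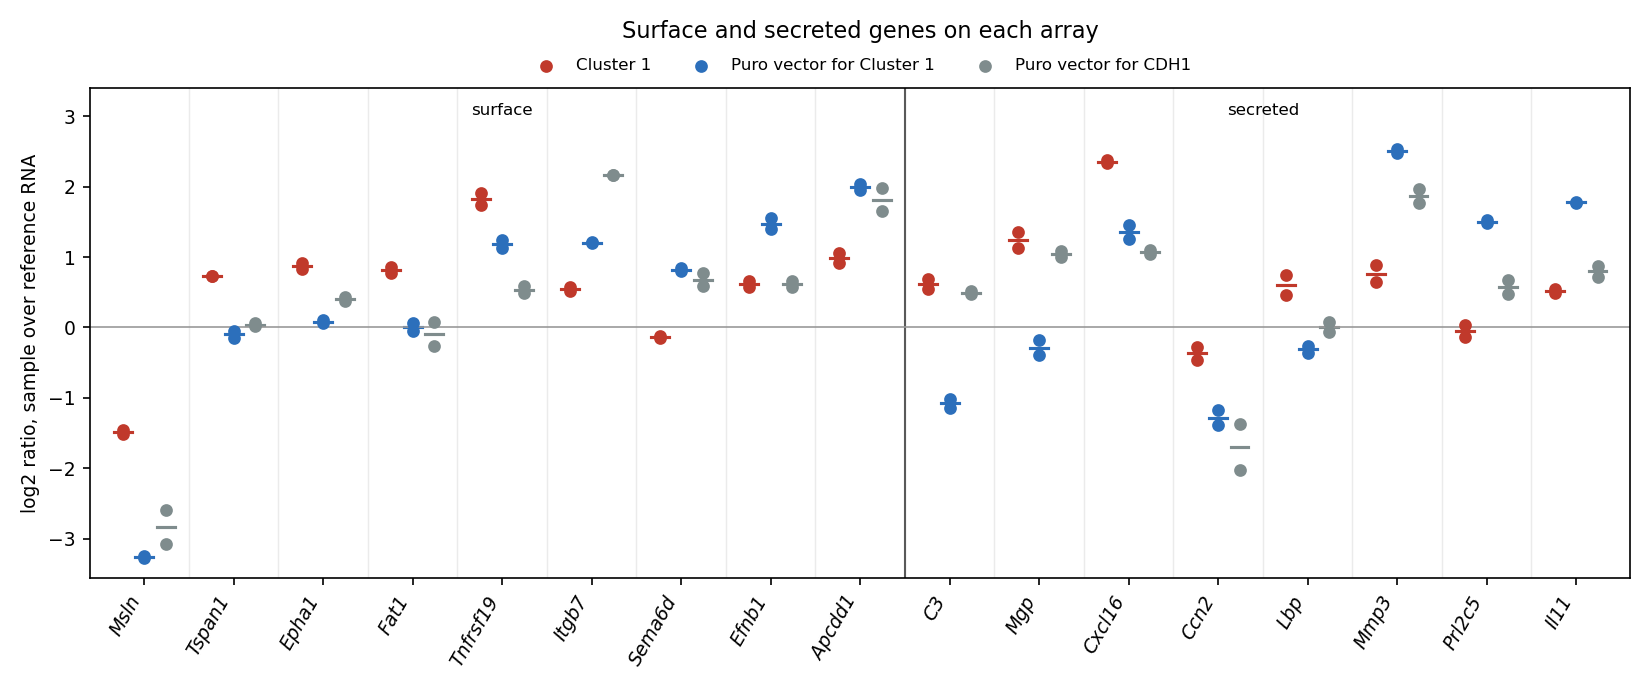
Log2 ratio of sample over reference RNA for 9 surface genes and 8 secreted genes, one point per array, for Cluster 1 (left), its Puro vector (middle) and the Puro vector for CDH1 (right); short lines are means of 2 arrays, and open symbols mark a group where neither array was well above background. Msln, C3 and Mgp lie higher in Cluster 1 than in its own Puro vector cells, and Mmp3, Prl2c5 and Il11 lower.

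Among the large rises outside the lists were those of Paox, which oxidises polyamines, at 1.81, Shtn1, a cytoskeletal protein of neurites, at 1.70, Rdm1 at 1.64, Cbr2, a carbonyl reductase, at 1.58 and Gsn, gelsolin, which severs actin, at 1.52 (adjusted p = 3.04e-08, 9.07e-08, 9.07e-08, 6.14e-08 and 1.19e-06). Gsn was -1.37 and -1.48 in Cluster 1 cells, against -2.96 and -2.94 in their Puro vector cells, all Cluster 1 values being above the controls. Cbr2 was -0.31 and Gsn 0.24 against the Puro vector for CDH1 (adjusted p = 0.0114 and 0.0718), where Paox was 2.20 and Shtn1 2.58 (adjusted p = 2.93e-09 and 1.76e-09). Elmo3, which activates Rac with Dock proteins, and Dact2, a regulator of TGF-beta receptors, changed by 1.35 and 1.37 (adjusted p = 3.83e-05 and 3.75e-05). Among falls, Bok, a Bcl-2 family protein, changed by -0.95, Phex, a membrane peptidase, by -0.85 and Sh2b3, an adaptor of cytokine receptors, by -0.82 (adjusted p = 6.98e-06, 0.000243 and 0.000662).

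Some list medians had like values against both controls and others did not. The adherens junction, tight junction, desmosome and YAP and SRF lists had medians of 0.227, 0.175, 0.181 and 0.156 against the own control, and 0.224, 0.214, 0.228 and 0.206 against the Puro vector for CDH1. The interferon, antigen presentation, S phase and complement lists had medians of 0.386, 0.419, -0.234 and 0.27 against the own control, and 0.052, 0.0715, 0.000292 and 0.0182 against the other. The medians over all genes tested were 0.00515 and 0.0123. Since the other control lay on another slide, control line and slide cannot be told apart in that difference, and the difference between the controls was not tested.

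**Figure D5:**
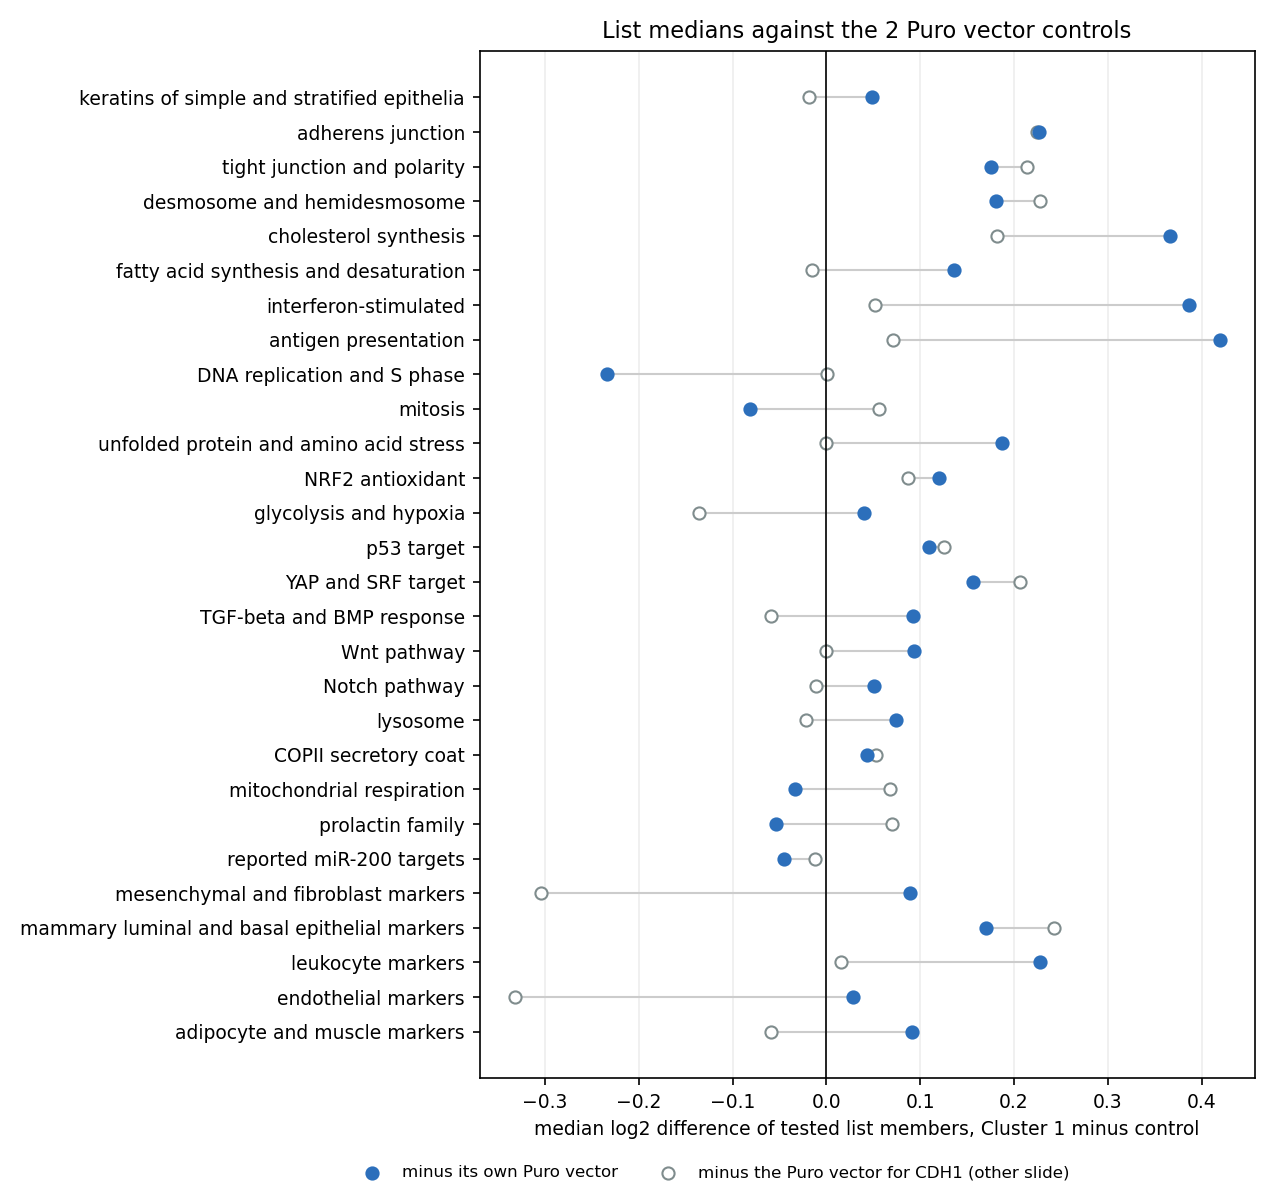
Median log2 difference of the tested members of each pathway and marker list, Cluster 1 minus its own Puro vector (filled blue) and minus the Puro vector for CDH1 (open grey). The axis is log2. Junction lists lie near each other in both comparisons, while interferon and antigen presentation lists lie near 0 against the second control.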

How the data were processed

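Each deposited scanner file gives, per the file headers, the mean intensity of every spot and its local background in both channels. It also gives processed intensities, which the scanner software had corrected for background and dye, and the log10 of red over green made from them, per the file headers. The deposited ratio values of the series matrix matched these processed signals (largest log10 difference 8.06e-08), with 0 columns left over, and were otherwise not used. Spots marked by the software were removed, background was corrected by normexp (offset 50), and ratios were normalised within arrays by loess and turned to log2 sample over reference in R 4.3.3 with limma 3.58.1. Of 45018 spots 1639 were controls, and 27124 probes passed the filter on dim probes. The brightest probe stood for a gene, named by accession, symbol or synonym. limma was fitted to all 16 arrays with group means, adjusted by Benjamini-Hochberg over 18998 genes and called under 0.05. Repeat letters were checked as pairs: the correlation of deviations was -0.0140, so they did not pair. The fit was tested on simulated data. Named genes are the 20 largest rises and 20 largest falls beyond both controls, up to 6 called members in each direction of each list, and those asked after whatever their value. Some genes that this rule takes are not reported here. Members and lists were chosen with earlier results of these data known. A gene not well above background on either array of a group has only a bound there. The number of arrays limits precision. Alternatives are in the closing section.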

Additional observations from a re-analysis of the deposited data

How the results depend on the processing

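Keeping marked spots gave 191 called genes against the own Puro vector and 336 against the Puro vector for CDH1, and ended 67 of the calls of named genes. The fitted background means of Cluster 1 replicate A were then -66.95 and -102.4 in its channels, and prior degrees of freedom 2.67 in place of 4.34. The sample channel alone gave 4049 genes against the Puro vector for CDH1 (the cause was not tested) and ended 12 calls of named genes against the own control: Ankrd1, Folr1, Id1, Irf9, Jun, Mcm5, Ndufs1, Nfe2l1, Nqo1, Nuf2, Ppm1f and Tspan2. Averaging probes ended 5 (Ccne1, Ccne2, Foxo1, Nectin2 and Tspan2), median centring 1 (Ndufs1), scaled spread 1 (Nqo1) and no filter on dim probes 1 (Serpinb5), while processed signals ended 0 of the named calls. Leaving out 1 array gave 677 to 978 genes against the own control and 885 to 1558 against the other. Repeat letters did not pair the samples; with the replicate block 1371 genes were called, 867 higher and 504 lower, and among named genes Vim, Cd68 and Ptprc were added and 0 calls ended. In other fits Grhl2 and Erbb2 were also called. Median centring gave 1127 genes, scaled spread 1832, offset 10 gave 1647 and processed signals 1694. The shift of the median over all genes was at most 0.029 in size, a fall by 0.029 (log2) with processed signals. The list medians of keratins, EMT factors, mesenchymal markers, glycolysis and hypoxia genes, SOX, FOX and homeobox factors, and metalloproteases turned sign with processed signals. Other settings turned those of the Notch, respiration, epithelial factor, ETS, Hippo, integrin, Eph, cytokine and endothelial lists. Signals near background limit fold sizes, most of all where 1 group is dim. With 2 arrays a group, p-values rest on the spread pooled over all groups.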
